A study of Mus musculus with 4 samples.

Results

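A set of 8 genes that make the beta cell's secreted hormones and turn their precursors into mature peptides was followed through a comparison of mouse islets at low and high glucose. They were *Ins1*, *Ins2*, *Iapp*, *Pcsk1*, *Pcsk2*, *Cpe*, *Ero1lb* and *Slc30a8*, picked by symbol from a table of 24157 genes. All 8 were in the table and all 8 passed the minimum level for testing. *Ins2* had 3 entries with the same values, and each of the others had 1.

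The islets came from male wild type C57bl6 mice of 3 months of age, were pooled, spent a night at 11 mM glucose and then 2 h at 2.8 mM. According to the methods they next stayed at 2.8 mM or moved to 16.8 mM glucose for 12 h. The labels instead list the 2.8 mM treatment as 2 h long and only the 16.8 mM treatment as 12 h long. If the labels hold, time in culture and glucose cannot be told apart. Libraries were made from total RNA, 2 at each concentration, numbered 1 and 2. Because the islets were pooled, the p-values measure the spread between libraries, which may be technical. The labels give the cell type as mixed, so each value is an average over all islet cells, and fewer cells of a type cannot be told apart from less RNA per cell.

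Insulin is translated as preproinsulin, folds in the endoplasmic reticulum (ER) with its disulfide bonds, and is packed as proinsulin into secretory granules. There the prohormone convertases PC1/3 and PC2, encoded by *Pcsk1* and *Pcsk2*, cut next to pairs of basic residues, and carboxypeptidase E removes the basic residues that remain. The zinc transporter ZnT8, encoded by *Slc30a8*, brings zinc into the granule, where it crystallises with insulin. The mouse carries a pair of insulin genes, and amylin, the product of *Iapp*, is stored and released with insulin and passes through the same convertases.

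The islet identity of the libraries was checked with marker genes of 9 cell types. All 6 beta cell markers were tested, of which *G6pc2*, *Mafa* and *Ucn3* rose and *Glp1r* fell at 16.8 mM glucose. None of 5 tested alpha cell markers was called, with summed levels of the alpha list of 2217 and 1698 RPKM at 2.8 mM and 2172 and 1538 RPKM at 16.8 mM, and none of 3 delta cell and 2 pancreatic polypeptide cell markers was called. None of the 6 acinar cell markers was called either, but their summed level was 96.1 and 275 RPKM at 2.8 mM and 231 and 479 RPKM at 16.8 mM, with a median log2 difference of 1.04. For the ductal list it was 19.7 and 16.5, then 27.2 and 33.8 RPKM, and 1 of 2 tested was called. Stromal and leukocyte markers had 0 of 3 tested genes called, and no endothelial marker reached the minimum. No marker was at 0 in all libraries. The part of these other cells in the differences below was not tested. Libraries numbered 2 held more ribosomal RNA precursor, with *Rn45s* at 4066 and 3676 RPKM against 795 and 701 RPKM, evenly over both groups. Depth estimated from the values was 50770000 to 60680000 reads per library, and correlations between libraries of a group were 0.98.

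At 16.8 mM glucose 6 of the 8 genes were higher, led by *Pcsk1* at 4.02 times and *Ins1* at 3.41 times their levels at 2.8 mM. *Ero1lb*, *Iapp*, *Ins2* and *Pcsk2* rose by smaller factors, between 1.53 and 2.12. The rise of the 6 genes was present between the libraries numbered 1 as between those numbered 2, with ratios of 1.53 to 3.53 and 1.53 to 4.56. *Cpe* and *Slc30a8* did not pass the test. *Slc30a8* had a lower mean at 16.8 mM, and whether it was called lower depended on the fit. The background was 10.7% of 7867 tested transcripts higher and 22.8% lower at an adjusted p under 0.05 (limma with Benjamini-Hochberg adjustment), or 33.4% in either direction, against 6 higher and 0 lower among the 8 genes. The 8 genes were chosen with earlier results of these data known. In 7 of the 8 genes the libraries of one group did not overlap those of the other. The same was true of 70.4% of all tested transcripts, so the lack of overlap is not a result about these genes. The median difference over the 8 genes was 0.84 on the log2 scale. Over all tested transcripts it was -0.11, so the typical transcript sat slightly lower at 16.8 mM and -0.11 is to be subtracted from a fitted difference to read it relative to that shift.

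**Figure D1:**
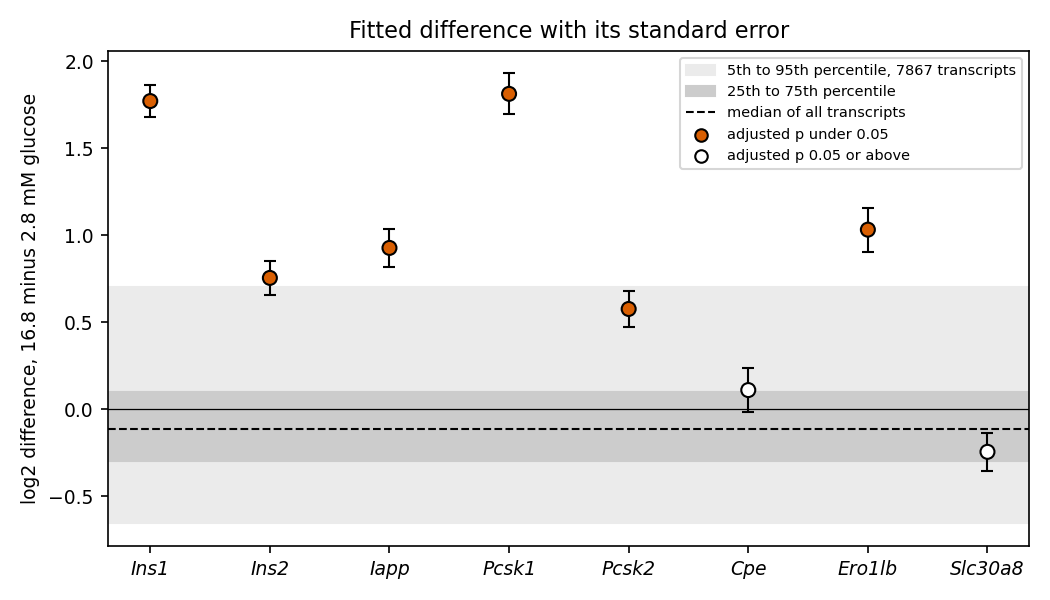
Fitted log2 difference in RPKM (16.8 minus 2.8 mM glucose) with its standard error for each gene, over the spread of 7867 tested transcripts (grey bands) and their median of -0.11 (dashed). *Pcsk1* (1.81) and *Ins1* (1.77) lie far above the 95th percentile of 0.70, whereas *Cpe* (0.11) and *Slc30a8* (-0.25) lie above 75.8% and 31.2% of all transcripts.

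The insulin genes are shown first by sequence, because whether their reads can be told apart decides what their separate values mean. The first 300 coding bases of the annotated transcripts (GENCODE M1, NCBI build 37) are given 5′ to 3′, with capitals where a base differs from, or is missing in, the other gene.
Ins1: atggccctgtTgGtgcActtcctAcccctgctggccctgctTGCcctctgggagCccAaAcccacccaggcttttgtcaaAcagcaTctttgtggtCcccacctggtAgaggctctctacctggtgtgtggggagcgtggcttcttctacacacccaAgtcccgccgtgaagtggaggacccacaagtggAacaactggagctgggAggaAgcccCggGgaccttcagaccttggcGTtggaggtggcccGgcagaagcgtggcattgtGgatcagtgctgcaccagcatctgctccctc
Ins2: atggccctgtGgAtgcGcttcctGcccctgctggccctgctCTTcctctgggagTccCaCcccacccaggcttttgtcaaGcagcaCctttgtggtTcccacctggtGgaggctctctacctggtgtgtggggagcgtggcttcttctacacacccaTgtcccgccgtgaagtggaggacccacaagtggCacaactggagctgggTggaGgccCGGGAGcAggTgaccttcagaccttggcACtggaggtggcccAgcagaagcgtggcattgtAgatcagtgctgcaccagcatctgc
The coding sequences had 327 and 333 bases for *Ins1* and *Ins2* and were identical at 302 of 327 aligned positions, or 92.4%. Reads were 50 bases long. Of the 967 windows of that length in the *Ins1* mRNA, 7 also occurred in *Ins2*, and of the 429 in the *Ins2* mRNA, 7 also occurred in *Ins1*. The longest run that the mRNAs shared was 56 bases. Nearly every exact read of 50 bases therefore belongs to 1 of the genes, although how the authors treated reads that match both is not given in the sources used here.

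*Ins1* (identifier NM_8386 as deposited, where leading zeros were lost) lies on chromosome 19 at 52338813 to 52339946, plus strand, NCBI build 37, with 2 exons. It had 3113 and 3072 RPKM (reads scaled to feature length and library depth) in libraries 1 and 2 at 2.8 mM glucose, and 10735 and 10364 RPKM at 16.8 mM. The libraries of a group were close, both high glucose libraries stood well above both low glucose libraries, and the means were 3092 ± 29.0 and 10549 ± 263 RPKM (SD, n = 2 each). The fitted log2 difference was 1.77 (SE 0.09, limma adjusted p = 8.6e-05), or 1.88 above the median of all transcripts.

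*Ins2* (NM_1185083) lies on chromosome 7 at 149864564 to 149865631, minus strand, with 3 exons. It had 18136 and 15943 RPKM at 2.8 mM and 30018 and 27396 RPKM at 16.8 mM glucose, the highest value of all tested transcripts in every library. Library 1 was above library 2 at both concentrations, and the groups did not overlap. The mean went from 17040 ± 1551 to 28707 ± 1854 RPKM (SD, n = 2 each), 1.68 times higher, with a log2 difference of 0.75 (SE 0.10, limma adjusted p = 0.00224).

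In these libraries the rise of *Ins1* was the larger of the insulin pair. *Ins1* was 0.172 and 0.193 of *Ins2* in RPKM in the 2.8 mM libraries and 0.358 and 0.378 of it in the 16.8 mM libraries, so the ratio was 2.02 times higher at 16.8 mM without overlap. A ratio within a library does not depend on how that library was scaled. The exact two-sided permutation test gave p = 0.333, the smallest p that 2 against 2 libraries allow, here and for each of the 8 ratios tested, and Benjamini-Hochberg adjustment leaves it at that value.

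*Iapp* (NM_10491), the amylin gene, lies on chromosome 6 at 142246943 to 142252481, plus strand, with 3 exons. It had 1618 and 1507 RPKM at 2.8 mM and 2872 and 3066 RPKM at 16.8 mM glucose. The lower 16.8 mM library was 1.78 times the higher 2.8 mM library. The mean of 1562 ± 78.9 RPKM rose to 2969 ± 137 RPKM (SD, n = 2 each), 1.90 times higher, with a log2 difference of 0.93 (SE 0.11, limma adjusted p = 0.00163). Relative to *Ins2*, *Iapp* held nearly the same place, at 0.0892 and 0.0945 in the 2.8 mM libraries and 0.0957 and 0.112 in the 16.8 mM libraries, 1.13 times higher. Relative to *Ins1* the ratio of *Iapp* was 0.557 times that at 2.8 mM. For *Ins1*, *Ins2* and *Iapp* the calls were lost without a minimum level (limma adjusted p = 0.0994, 0.622 and 0.125) and under quantile normalization, which equalises the highest values of the libraries.

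The *Iapp* locus sits inside *Slco1a5*, an organic anion transporter gene on the opposite strand at 142182748 to 142271501. *Slco1a5* had 99.0, 92.1, 177 and 188 RPKM in the same order of libraries, and the ratio of *Iapp* to *Slco1a5* stayed between 16.3 and 16.4 in the 4 libraries. Taken over their spans, the values of *Slco1a5* come to between 0.818% and 1.67% of all reads, close to the 0.834% to 1.70% of *Iapp*. Since *Iapp* lies inside the span of *Slco1a5*, counting without strand would enter the reads of *Iapp* for both genes. The sources used here do not state that strand was used in the counting, so reads of this pair cannot be told apart.

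**Figure D2:**
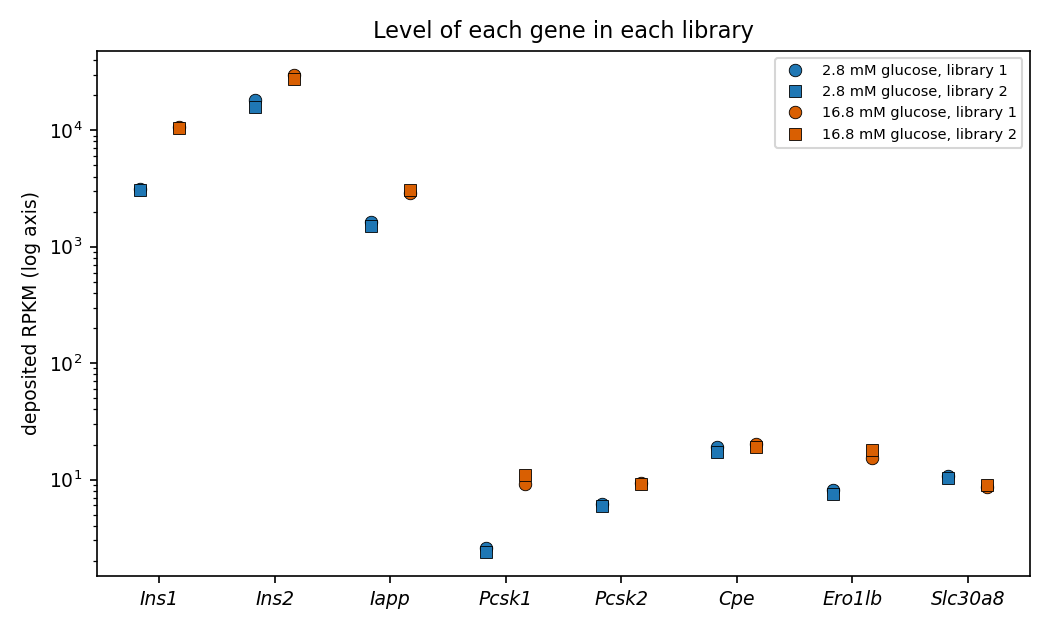
RPKM on a log axis for each gene in the 4 libraries (blue 2.8 mM, orange 16.8 mM glucose, circles library 1, squares library 2). The orange points lie above the blue ones for *Ins1*, *Ins2*, *Iapp*, *Pcsk1*, *Pcsk2* and *Ero1lb*, overlap them for *Cpe*, and lie below them for *Slc30a8*.

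Promoter windows are shown for *Ins1*, *Iapp* and *Pcsk1*. The RefSeq promoter table (GRCm38.p6) held windows of 5 of the 8 genes, the others being those of *Pcsk2* and *Ero1lb*. *Pcsk2* and *Ero1lb* also rose, so a rise does not set the printed windows apart. Each window has the 250 bases before the RefSeq start, matched once to NCBI build 37, and is printed 5′ to 3′ only up to the transcript start in GENCODE M1. Capitals mark 3 short motifs on either strand: CATCTG, an E box core known from insulin promoters, TAAT, a homeodomain core, and TGACG, the first letters of a cAMP response element.
Ins1 chr19:52338537-52338786, plus strand: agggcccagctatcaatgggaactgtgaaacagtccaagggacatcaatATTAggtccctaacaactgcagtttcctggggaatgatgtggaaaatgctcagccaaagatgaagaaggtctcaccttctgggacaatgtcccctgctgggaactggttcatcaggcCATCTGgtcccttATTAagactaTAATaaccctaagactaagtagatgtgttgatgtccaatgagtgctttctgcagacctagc
Iapp chr6:142246695-142246942, plus strand: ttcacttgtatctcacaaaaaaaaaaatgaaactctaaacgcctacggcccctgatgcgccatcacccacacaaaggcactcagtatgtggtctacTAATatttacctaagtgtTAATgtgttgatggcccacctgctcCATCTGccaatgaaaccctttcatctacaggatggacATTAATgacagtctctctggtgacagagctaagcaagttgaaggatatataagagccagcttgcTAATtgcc
Pcsk1 chr13:75227055-75227273, plus strand: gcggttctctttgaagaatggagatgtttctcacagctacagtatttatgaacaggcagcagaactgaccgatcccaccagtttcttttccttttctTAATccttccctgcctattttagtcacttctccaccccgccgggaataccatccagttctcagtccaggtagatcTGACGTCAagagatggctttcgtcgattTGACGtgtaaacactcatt
CATCTG was in the windows of *Ins1* and *Iapp*, 84 and 111 bases before the RefSeq start, and in 14.4% of 32851 promoter windows of that length. TAAT was in the windows of *Ins1*, *Iapp* and *Pcsk1*, and in 54.9% of all windows. Neither CATCTG nor TAAT was in the windows of *Pcsk2* and *Ero1lb*, and that of *Ero1lb* held no TGACG either. TGACG was in the windows of *Pcsk1* and *Pcsk2* and in 17.8% of all windows. Its 3 matches in *Pcsk1* include a pair that overlaps in a palindrome 78 bases before the RefSeq start. The printed windows of *Iapp* and *Pcsk1* stop short of that start, at 248 and 219 of the 250 bases. CACGTG and TGCTGA were in none of the 5 windows, against 6.02% and 16.1% of all windows. These are matches of letters in windows that end at the RefSeq starts.

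*Pcsk1* (NM_13628) encodes PC1/3 and lies on chromosome 13 at 75227274 to 75269946, plus strand, with 14 exons. It had 2.60 and 2.40 RPKM at 2.8 mM and 9.18 and 10.9 RPKM at 16.8 mM glucose. Each 16.8 mM library was at least 3.53 times each 2.8 mM library, although the 16.8 mM libraries lay further apart. The mean rose from 2.50 ± 0.143 to 10.1 ± 1.25 RPKM (SD, n = 2 each), the largest ratio among the 8 genes, with a log2 difference of 1.81 (SE 0.12, limma adjusted p = 1.8e-04), or 1.92 above the median of all transcripts.

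*Pcsk2* (NM_8792) encodes PC2 and spans chromosome 2 from 143371892 to 143642021, plus strand, with 12 exons. It had 6.12 and 5.94 RPKM at 2.8 mM and 9.35 and 9.10 RPKM at 16.8 mM glucose. The libraries of each group were nearly equal and the groups were apart. The mean of 6.03 ± 0.127 RPKM rose to 9.23 ± 0.183 RPKM (SD, n = 2 each), 1.53 times higher, with a log2 difference of 0.58 (SE 0.10, limma adjusted p = 0.00679). Transcripts C630020P19Rik and Gm12360 overlap *Pcsk2* on the opposite strand, so its value may hold their reads. *Pcsk2os1*, which also overlaps *Pcsk2*, had 16.8 and 16.0 RPKM at 2.8 mM and 24.9 and 24.7 RPKM at 16.8 mM glucose. Its log2 difference was 0.58, and how many reads the 2 genes share was not tested.

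The rise of *Pcsk1* was the larger of the convertase pair in these libraries. The ratio of *Pcsk1* to *Pcsk2* was 0.425 and 0.404 in the 2.8 mM libraries and 0.981 and 1.203 in the 16.8 mM libraries, 2.62 times higher and without overlap. The ratio of *Pcsk1* to *Ins1* was 0.000836 and 0.000781 in the 2.8 mM libraries and 0.000855 and 0.00106 in the 16.8 mM libraries, 1.18 times higher. For this ratio the groups did not overlap, but the gap between them was smaller than the spread within either.

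*Cpe* (NM_13494), the carboxypeptidase that trims the cut ends, lies on chromosome 8 at 67071355 to 67171837, minus strand, with 9 exons. It had 19.2 and 17.2 RPKM at 2.8 mM and 20.4 and 18.9 RPKM at 16.8 mM glucose. The groups overlapped, and library 1 was above library 2 in both. The log2 difference was 0.11 (SE 0.13, limma adjusted p = 0.529). The ratio of *Cpe* to *Ins2* was 0.00106 and 0.00108 in the 2.8 mM libraries and 0.000679 and 0.000691 in the 16.8 mM libraries, which is 0.641 times the former and the tightest of the 8 ratios within groups.

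*Ero1lb* (NM_26184), also known as *Ero1b*, encodes an ER oxidase that reoxidises the enzymes forming disulfide bonds and is known for its high level in the pancreas. It lies on chromosome 13 at 12658150 to 12701793, plus strand, with 16 exons. It had 8.11 and 7.52 RPKM at 2.8 mM and 15.2 and 17.8 RPKM at 16.8 mM glucose. The groups were apart by more than the spread within either. The mean rose from 7.82 ± 0.416 to 16.5 ± 1.84 RPKM (SD, n = 2 each), 2.12 times higher, with a log2 difference of 1.03 (SE 0.13, limma adjusted p = 0.00174). Relative to *Ins2* it was 0.000447 and 0.000472 in the 2.8 mM libraries and 0.000508 and 0.000651 in the 16.8 mM libraries, 1.25 times higher. For this ratio the gap between the groups was smaller than the spread within the 16.8 mM libraries.

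*Slc30a8* (NM_172816) lies on chromosome 15 at 52127108 to 52167353, plus strand, with 8 exons. It had 10.7 and 10.3 RPKM at 2.8 mM and 8.65 and 8.93 RPKM at 16.8 mM glucose. Both 16.8 mM libraries were below both 2.8 mM libraries, by a small margin. The mean was 10.5 ± 0.292 against 8.79 ± 0.195 RPKM (SD, n = 2 each), 0.836 times, with a log2 difference of -0.25 (SE 0.11, limma adjusted p = 0.119) that did not pass the test. With voom on reconstructed reads, an alternative chosen after seeing the data, it passed (limma adjusted p = 0.0246, log2 difference -0.26). It also passed with the replicate block (limma adjusted p = 0.0424), although the labels do not say what the number of a library stands for. Relative to the median of all transcripts the difference in the main fit was -0.13. The ratio of *Slc30a8* to *Ins2* was 0.000591 and 0.000647 in the 2.8 mM libraries and 0.000288 and 0.000326 in the 16.8 mM libraries, 0.496 times as high.

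**Figure D3:**
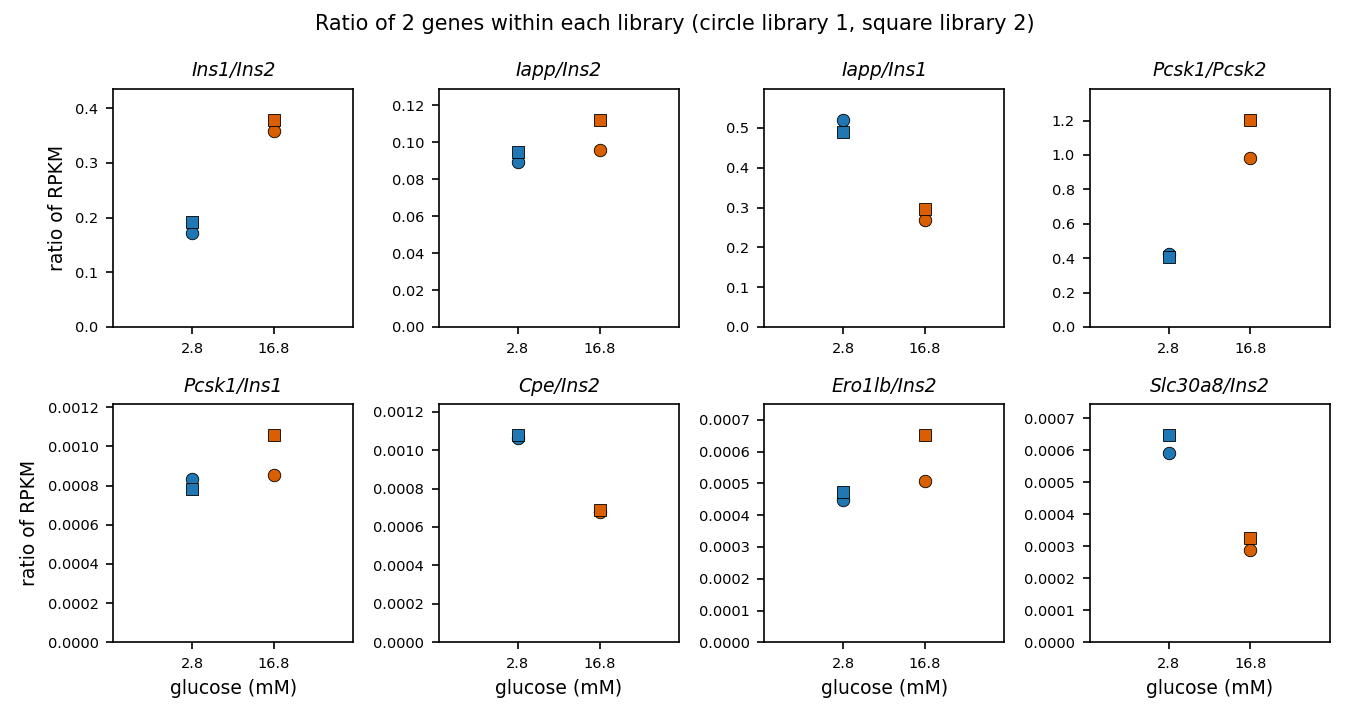
Ratio of RPKM between 2 genes within each library (x axis glucose in mM, each y axis from 0, circles library 1, squares library 2). *Ins1*/*Ins2* (2.02 times) and *Pcsk1*/*Pcsk2* (2.62 times) are higher at 16.8 mM, while *Iapp*/*Ins1* (0.557), *Cpe*/*Ins2* (0.641) and *Slc30a8*/*Ins2* (0.496) are lower.

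RPKM cannot order these genes by transcript level, because the values fit a length that includes introns, and exons make up 89.6% of the span of *Ins1* but 1.75% of that of *Pcsk2*. Reads were therefore estimated from RPKM, span and depth and set per kb of exon and scaled to depth like RPKM. At 2.8 mM glucose the means of this level were 38036 for *Ins2*, 10312 for *Iapp* and 3448 for *Ins1*, followed by 876 for *Cpe*, 345 for *Pcsk2*, 215 for *Slc30a8*, 80.5 for *Ero1lb* and 39.8 for *Pcsk1*. No neighbours in that order overlapped. *Pcsk2* thus stood well above *Pcsk1* per exon length at low glucose, with any reads of the transcripts that overlap *Pcsk2* included. At 16.8 mM the first 5 places were the same, with *Ins2* at 64080, *Iapp* at 19598, *Ins1* at 11764, *Cpe* at 946 and *Pcsk2* at 528. *Ero1lb* at 170 overlapped both *Slc30a8* at 180 and *Pcsk1* at 160 and could not be ordered against them. *Slc30a8* lay above *Pcsk1* without overlap (177 and 182 against 146 and 174). The annotated *Ins1* transcript is 1.02 kb against 0.478 kb for *Ins2*, and a longer annotated transcript gives a lower value on this scale. Reads from introns, where counted, are included in the values of the long genes.

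Together the 8 genes took an estimated 3.63% and 3.30% of all reads in the 2.8 mM libraries and 6.61% and 6.39% in the 16.8 mM libraries. *Ins2* alone took 1.94% and 1.70%, then 3.20% and 2.92%. *Ins1* went from 0.353% and 0.348% to 1.22% and 1.17%. RPKM is relative to all reads of a library. When each library was rescaled without the 8 genes, 45.3% of all calls were higher in place of 31.9%, with 42.3% under quantile normalization and 44.1% after median centring.

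Each gene was set beside its pathway in lists of 16 genes, which were chosen with earlier results of these data known. The shares of each list called are set beside those of all transcripts, 10.7% higher and 22.8% lower. Prohormone cleavage and trimming had 9 tested genes, of which 1 rose (11.1%), 3 fell (33.3%) and 5 did not pass, with a median log2 difference of 0.16. Both shares lie near those of all transcripts, and 1 gene was called lower without library 1 at 2.8 mM or without library 2 at 16.8 mM. *Pam*, which amidates peptide ends, amylin among them, rose from 1.88 ± 0.089 to 3.86 ± 0.148 RPKM (log2 difference 0.87, limma adjusted p = 9.1e-04). *Pcsk4*, a convertase known from germ cells, fell from 3.30 ± 0.309 to 2.16 ± 0.270 RPKM (log2 difference -0.52, limma adjusted p = 0.0133). *Cpd* and *Ide*, the insulin-degrading enzyme, were the other two that fell. *Pcsk1n*, whose product inhibits PC1/3, had the highest level of the list with 63.5 ± 9.87 and 76.4 ± 5.26 RPKM and did not pass (limma adjusted p = 0.211).

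Of 15 tested genes of disulfide formation and protein folding in the ER 8 fell (53.3%, against 22.8% of all transcripts), 2 rose (13.3%, against 10.7%) and 5 did not pass, with a median log2 difference of -0.42. Of all calls among the tested transcripts, 68.1% were lower. *Hspa5*, the ER chaperone BiP, had the highest level and the largest fall, from 617 and 554 RPKM in the 2.8 mM libraries to 218 and 205 RPKM in the 16.8 mM libraries (log2 difference -1.46, limma adjusted p = 5.8e-04). *Calr*, *Sdf2l1*, *Pdia4*, *Creld2*, *Canx*, *Pdia6* and *Pdia3*, chaperones and disulfide isomerases of the ER, were the others that fell. The 2 that rose were *Ero1l* and *Prdx4*, and these calls depended on the fit: 0 genes of the list were called higher without a minimum level or without library 1 at 16.8 mM, and 1 without library 2 at 2.8 mM. *Ero1l*, the paralog of *Ero1lb*, read 6.19 and 7.496 RPKM at 2.8 mM and 11.3 and 9.14 RPKM at 16.8 mM (log2 difference 0.55, limma adjusted p = 0.029), and *Prdx4*, a peroxiredoxin of the ER, had a log2 difference of 0.33.

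Among the zinc transporters 8 were tested, 3 rose (37.5%, against 10.7% of all transcripts), 1 fell (12.5%, against 22.8%) and 4 did not pass, with a median log2 difference of 0.01. The rises were lost easily: 0 were called higher without a minimum level, without library 2 at 2.8 mM or without library 1 at 16.8 mM, and 1 without library 1 at 2.8 mM or without library 2 at 16.8 mM. *Slc30a1*, which exports zinc across the plasma membrane, fell from 4.58 ± 0.147 to 2.73 ± 0.195 RPKM (log2 difference -0.66, limma adjusted p = 0.00337). *Slc39a1*, a zinc importer, rose from 4.94 ± 0.283 to 6.47 ± 0.259 RPKM (log2 difference 0.36, limma adjusted p = 0.037), with *Slc39a6* and *Slc39a13* the other two that rose. *Slc39a7* had the highest level, 43.8 ± 5.47 and 44.4 ± 2.35 RPKM, and did not pass.

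Of the 13 tested secretory granule proteins 6 rose (46.2%, against 10.7% of all transcripts), 0 fell (against 22.8%) and 7 did not pass, with a median log2 difference of 0.35. *Vgf*, a granin family precursor, rose from 25.7 ± 3.28 to 61.6 ± 3.14 RPKM (log2 difference 1.25, limma adjusted p = 0.00137), and *Scg3*, *Chgb*, *Ptprn*, *Chga* and *Hid1* were the others. *Scg2* had the highest level, at 359 ± 20.1 and 464 ± 1.80 RPKM, and did not pass (limma adjusted p = 0.0579), but passed under each of the 3 other scalings. Of the 13 tested transcription factors tied to the insulin genes 6 rose (46.2%, against 10.7% of all transcripts), 3 fell (23.1%, close to the 22.8% of all transcripts) and 4 did not pass. *Mafa*, an activator of insulin promoters, read 13.7 and 10.2 RPKM at 2.8 mM and 57.5 and 76.2 RPKM at 16.8 mM (log2 difference 2.44, limma adjusted p = 4.2e-04). *Pdx1*, *Nkx2-2*, *Isl1*, *Neurod1* and *Pax6* also rose. *Rfx6* fell from 3.22 ± 0.0501 to 2.20 ± 0.200 RPKM (log2 difference -0.46, limma adjusted p = 0.0109), as did *Myt1* and *Mlxipl*, the latter called under none of the other scalings, while *Insm1*, the factor with the highest level, did not pass. No tested gene of the 5 lists changed sign under the 3 other scalings. In these lists the genes beyond the highest level, the largest rise and the largest fall were named after their values were seen.

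**Figure D4:**
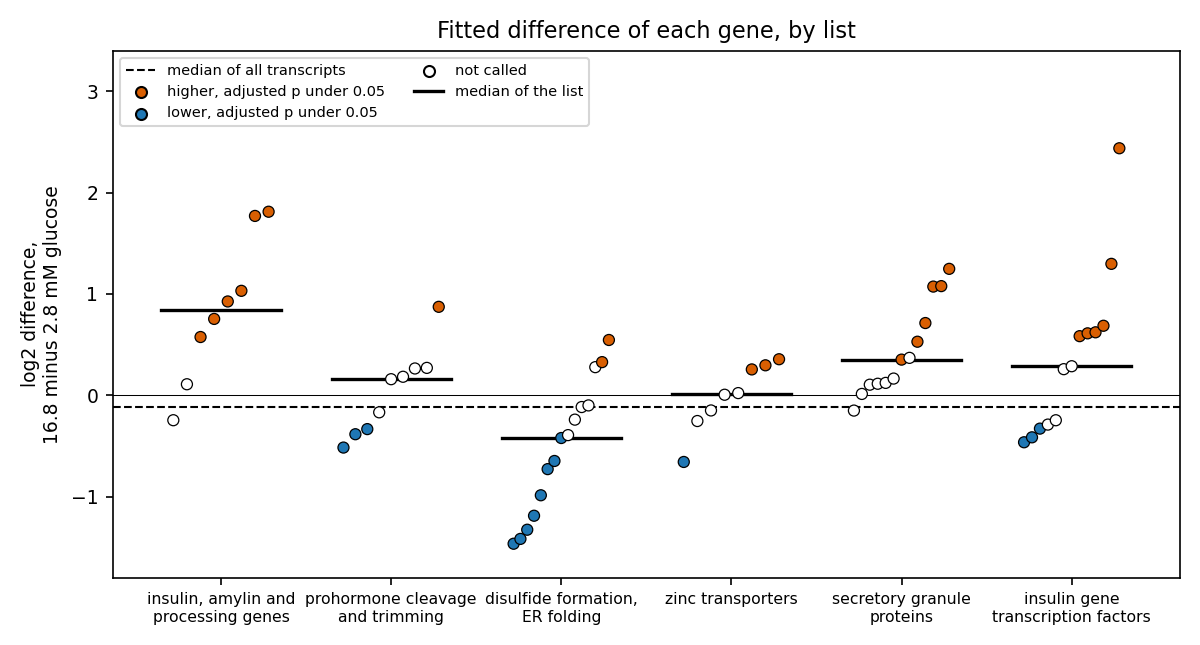
Fitted log2 difference (16.8 minus 2.8 mM glucose) of each tested gene, by list, coloured by the limma test (orange higher, blue lower, white not called), with the list median as a bar and the median of all transcripts, -0.11, dashed. The 8 hormone and processing genes have a median of 0.84 and the ER folding list one of -0.42.

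By the Euclidean distance between centred log2 values over the 4 libraries, each gene was matched to the nearest of 958 genes whose mean RPKM reached 10. The nearest to *Ins1* was *Hap1*, at a distance of 0.14, and to *Ins2* it was *Tsc22d1*, at 0.032. *Txnip*, known to follow glucose, was nearest to *Pcsk1*, at 0.25, with 7.73 and 7.20 RPKM at 2.8 mM and 30.5 and 29.1 RPKM at 16.8 mM. *Txnip* was closer still to *Ins1*, at 0.17, where it came after *Hap1*. For *Pcsk1*, *Ckb* followed at nearly the same distance, 0.25. For *Iapp* and *Pcsk2* the nearest were the overlapping *Slco1a5* and *Pcsk2os1*, at 0.0036 and 0.027, and the nearest without overlap were *Ly6e* and *Sez6l2*. *Cpe* was nearest to *Atp5h*, at 0.028, *Ero1lb* to *Slco1a5*, at 0.14, and *Slc30a8* to *Mir6935*, at 0.046. The members themselves were left out of the comparison, and *Slco1a5* kept a nearly fixed ratio to *Iapp*. The next nearest to *Ero1lb* was *Scg3*, also at 0.14. With 4 libraries these distances describe likeness of values only.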

How the data were processed

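Islet RNA was sequenced with 50 cycles, single read, from TruSeq v2 libraries, 2 at each glucose concentration. The authors deposited 1 table of RPKM values with 33923 entries, 29217 of them RefSeq coding transcripts, 4561 non-coding and 145 lncRNAs. Per the labels the processing used STAR, bedtools and DESeq with the mm9 genome (NCBI build 37). The methods describe counting over RefSeq exons and define RPKM per exon length, and the deposited values go against this length. Values of low coding transcripts were whole reads within 0.1 in 57.0% to 63.7% of cases over the genomic span and in 18.9% to 21.9% over exons, so the span was used. Values of miRNA hairpins, whole within 0.02 in 98.0% to 98.5% of cases, gave the depth. Precision is limited by the number of libraries.

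Entries of a gene with equal values were used once, and for several entries of a symbol the one with the highest mean was taken. Transcripts whose mean RPKM reached 1 were tested on log2(RPKM + 0.5) with limma 3.58.1 in R 4.3.3 (variance trend, Benjamini-Hochberg adjustment, threshold 0.05). The added 0.5 understates the change of low genes. The table holds RPKM, so the test planned for counts was not used. Within-library ratios were compared by an exact permutation test (scipy 1.17.1). Python 3.11.15, pandas 2.3.3, numpy 2.4.6, Biopython 1.88 and matplotlib 3.10.9 were used. The fit was also run on simulated data with independent libraries and the same dispersion for every gene. Such data cannot show how the fit performs on these libraries. Positions and transcripts came from GENCODE M1, promoter windows from RefSeq.

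The members and gene lists were chosen with earlier results of these data known. From each list the gene with the highest mean, the largest rise and the largest fall among called genes were named. Alternatives were 0.1 or 1 RPKM added, no minimum, at least 1 RPKM in every library, no trend, quantile normalization, median centring, rescaling without the 8 genes, the replicate block, all entries as deposited and leaving out each library. A voom fit on reconstructed reads of at least 20 on average and the ratio of mean RPKM were added after seeing the data. The other libraries of the study were not analysed here.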

Additional observations from a re-analysis of the deposited data

How the results depend on the processing

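With 2 libraries per group no single library could be judged against its group, and p-values between libraries of 1 pool say nothing about animals. *Pcsk1*, *Pcsk2* and *Ero1lb* were called higher in 15 of 15 tested alternatives, and *Ins1*, *Ins2* and *Iapp* in 13 of 15. Without a minimum level these 3 kept log2 differences of 1.77, 0.75 and 0.93 but had limma adjusted p-values of 0.0994, 0.622 and 0.125, and the cause was not tested. Under quantile normalization they were 0.54, 0.00 and 0.57 (limma adjusted p = 0.319, 1 and 0.213). That method gives each library the same highest value, which is *Ins2* in all 4 libraries, and so sets its difference to 0. *Cpe* was called in 0 of 15, with its lowest limma adjusted p just above the threshold after median centring. *Slc30a8* was not called in 13 of 15. With the replicate block its difference of -0.25 had a limma adjusted p of 0.0424, and with voom on reconstructed reads, added after seeing the data, -0.26 had one of 0.0246. The block moved no other call among the 8 genes and gave 1232 higher and 2835 lower transcripts in place of 838 and 1790. The labels do not say what the number of a library stands for. Deviations of libraries with the same number correlated at 0.31 over 2 pairs, and *Rn45s* followed the number in both groups. Quantile normalization and median centring gave 1576 and 1662 higher, and voom gave 2335 higher and 4999 lower of 17242. Leaving out 1 library gave 720 to 908 higher and 1131 (without library 1 at 2.8 mM) to 2014 lower, with log2 differences of 1.74 to 1.80 for *Ins1*, 0.66 to 0.85 for *Ins2*, 0.87 to 0.98 for *Iapp*, 1.69 to 1.93 for *Pcsk1*, 0.56 to 0.60 for *Pcsk2*, 0.03 to 0.19 for *Cpe*, 0.92 to 1.14 for *Ero1lb* and -0.27 to -0.22 for *Slc30a8*. Calls in either direction were 4 in the prohormone list, 10 in the ER folding list, 4 among zinc transporters, 6 among granule proteins and 9 among transcription factors. Without a minimum they were 2, 6, 1, 3 and 3. Median centring gave 8 in the prohormone and 10 in the granule list, and voom 7 in the prohormone and 7 in the zinc list. Zinc transporters had 2 calls without the trend. Without 1 library there were 2 to 4 in the prohormone list (2 without library 1 at 2.8 mM or library 2 at 16.8 mM) and 1 to 2 among zinc transporters. Ratios of the untransformed mean RPKM kept the direction of all 8 genes.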
